A study of Homo sapiens with 20 samples.

Results

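The NRF2 pathway was followed through 44 genes in A549, a human lung adenocarcinoma line of the non-small cell lung cancer type that is known to carry a mutant KEAP1. Members were chosen by name, taking the rows of the gene table that bore a listed symbol and that reached 0.1 FPKM (fragments per kilobase of transcript, scaled to the mapped fragments of the library) in at least 4 of the 20 libraries. All 44 listed symbols passed, among 20094 genes that passed in the whole table of 58825. The study asked whether extracellular ATP (eATP) acts on gene expression as TGF-β does, an inducer of epithelial to mesenchymal transition. There were 5 groups of 4 libraries. Control A549 received no treatment and carry no collection time in the labels. eATP was given at 0.5 mM for 2 h or 6 h, and TGF-β at 10 ng/mL for 2 h or 6 h. All cells came from the same tumor line and no source says that replicates were separate cultures, so the tests measure only the spread between these libraries. Because the controls were a single group, every comparison with control shares the same 4 libraries. The KEAP1 mutation is background knowledge of the line, since the tables hold levels of RNA and no variant calls.

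NRF2, encoded by NFE2L2, is a transcription factor that pairs with small MAF proteins and binds the antioxidant response element (ARE). KEAP1 is the adaptor that hands NRF2 to a ubiquitin ligase for degradation, and oxidants or electrophiles that modify KEAP1 stop this, so that NRF2 accumulates. BACH1 occupies the same elements as a repressor and is removed by heme. In A549 and in other lung tumors with mutant KEAP1, NRF2 is stable without any stimulus, and its targets, which make glutathione, regenerate thioredoxin and NADPH, reduce carbonyls and quinones, store iron and export conjugates, are known for high levels at rest.

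The ARE core was searched for as TGACNNNGC on both strands in RefSeq promoter windows (build GRCh38.p14) that run from 250 bases before to 50 bases after a gene's start. Of the 44 members, 34 matched an entry by symbol, with 48 windows because some genes have several starts, and 15 of these windows (31.25%) held the core. In all 35116 windows of the table the share was 13.35%. For the AP-1 element TGACTCA, which can overlap the ARE core, the shares were 8.33% of member windows and 4.95% of all windows, and the elements overlapped in the windows of ME1 and PIR. The following 6 upstream stretches of 250 bases are printed because they belong to the 6 members that were called in a comparison with control and hold the core upstream of a start. The core stands in capitals. The genes are GCLM (chr1:93909431-93909680, minus strand), TXNRD1 (chr12:104286782-104287031, plus), PGD (chr1:10398814-10399063, plus), CYP4F11 (chr19:15934868-15935117, minus), KEAP1 (chr19:10502772-10503021, minus) and MAFF (chr22:38201744-38201993, plus).
GCLM: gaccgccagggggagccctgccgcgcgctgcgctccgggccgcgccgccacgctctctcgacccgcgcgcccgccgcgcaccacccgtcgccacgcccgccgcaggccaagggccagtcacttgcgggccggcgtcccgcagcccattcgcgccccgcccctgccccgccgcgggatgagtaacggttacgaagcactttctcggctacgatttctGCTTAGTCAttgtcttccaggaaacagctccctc
TXNRD1: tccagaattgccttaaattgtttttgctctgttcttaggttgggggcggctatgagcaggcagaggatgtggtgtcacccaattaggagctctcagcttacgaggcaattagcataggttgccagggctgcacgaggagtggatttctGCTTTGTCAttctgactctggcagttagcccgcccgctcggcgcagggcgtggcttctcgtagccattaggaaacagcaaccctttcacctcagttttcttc
PGD: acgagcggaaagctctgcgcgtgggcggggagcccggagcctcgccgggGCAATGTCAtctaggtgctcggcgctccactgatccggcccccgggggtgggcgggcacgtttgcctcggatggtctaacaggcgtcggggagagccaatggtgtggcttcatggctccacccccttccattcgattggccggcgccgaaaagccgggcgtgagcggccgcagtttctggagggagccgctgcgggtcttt
CYP4F11: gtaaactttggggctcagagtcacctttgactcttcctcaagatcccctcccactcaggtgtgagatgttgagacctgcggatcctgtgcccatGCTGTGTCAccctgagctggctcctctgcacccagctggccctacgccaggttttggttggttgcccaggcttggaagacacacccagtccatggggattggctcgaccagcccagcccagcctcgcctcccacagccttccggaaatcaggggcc
KEAP1: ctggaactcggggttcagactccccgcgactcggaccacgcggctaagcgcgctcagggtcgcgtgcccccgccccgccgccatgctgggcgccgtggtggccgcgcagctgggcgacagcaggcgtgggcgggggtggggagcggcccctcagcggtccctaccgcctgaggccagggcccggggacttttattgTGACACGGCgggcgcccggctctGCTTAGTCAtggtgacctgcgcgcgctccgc
MAFF: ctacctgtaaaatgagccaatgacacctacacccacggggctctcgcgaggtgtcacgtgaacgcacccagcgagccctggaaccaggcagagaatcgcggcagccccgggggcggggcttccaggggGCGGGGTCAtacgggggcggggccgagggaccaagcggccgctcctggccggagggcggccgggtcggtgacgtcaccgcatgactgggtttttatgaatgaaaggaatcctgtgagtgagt
Counted from the start, the first base of the match lies 34 bases upstream in GCLM, 102 in TXNRD1, 201 in PGD, 156 in CYP4F11 and 122 in MAFF, and KEAP1 has a pair of matches at 54 and 31 bases. TXNRD1 has another start, not printed, whose window (chr12:104215529-104215828, plus) holds matches at 99 and 8 bases upstream, and the other windows of CYP4F11, KEAP1 and MAFF hold none. Of the printed matches all but the one at 54 bases in KEAP1 read as the reverse complement of the core. GCLM and KEAP1 carry the same 9 letters, GCTTAGTCA. The windows of GCLC, NQO1, SRXN1, NR0B1, OSGIN1, ABCC2 and UGDH did not hold these letters. HMOX1, SLC7A11, AKR1B10, GSR and PRDX1 had no entry. A match is a description of the sequence, and binding was not measured.

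Libraries held 56187614 to 75050437 counted reads (median 72585648), with 21705 to 23245 genes above 0. Epithelial keratins were abundant in all 20 libraries (KRT8 at 329 to 607 FPKM, KRT18 at 659 to 1245 FPKM and KRT19 at 58.1 to 136 FPKM). The epithelial genes EPCAM, at 4.48 to 6.99 FPKM, and CDH1, at 2.14 to 15.3 FPKM, were much lower. The T cell gene CD3E and the loci CDKN2A and CDKN2B, which A549 is known to have lost, had no read in any library. The defining alveolar genes SFTPC and NKX2-1 and the leukocyte gene PTPRC were at or near 0, with at most 15, 17 and 8 reads in a library, and the endothelial gene VWF and the fibroblast gene DCN had at most 8 reads each. Other genes of these lists were expressed, namely ABCA3 at 1.74 to 4.61 FPKM, CD14 at 1.15 to 5.47 FPKM, CD68 at 1.79 to 6.22 FPKM, CDH5 at up to 0.503 FPKM (268 reads) and COL1A1 at 0.566 to 17.8 FPKM. The sum over the 5 fibroblast genes moved with TGF-β, from 1.25 to 1.69 FPKM in the controls to 6.15 to 7.04 FPKM at 2 h and 15.1 to 18.2 FPKM at 6 h, where COL1A1 made up most of it and the other 4 genes stayed at or under 0.603 FPKM each. The sum over 4 leukocyte genes was 6.28 to 8.14 FPKM in the controls and 3.39 to 5.49 FPKM at 6 h of TGF-β, and that over 3 endothelial genes was 0.0909 to 0.177 FPKM in the controls and 0.266 to 0.530 FPKM with eATP. The part of these genes in the results below was not tested. One library stood apart. In TGF-β 2 h replicate 1 the deviation of 12673 genes from their group mean had an SD of 0.580 on the log2 scale, against 0.265 to 0.362 in the other 19 libraries. That library had the highest or the lowest FPKM of its group in 40 of the 44 members, and control replicate 3 did so in 42 of 44.

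Untreated A549 held most members at a high level. The control mean of the 44 members ranged from 1.08 FPKM (MAFF) to 5484 FPKM (FTL) with a median of 55.6 FPKM, where the median of all 20094 genes tested was 1.68 FPKM. Ordered by control mean, 14 members were among the top 1% of genes, 32 among the top 10% and 40 in the upper 50%. In the whole table FTL, the ferritin light chain that stores iron, ranked 1, with 5147, 5075, 6392 and 5322 FPKM in the 4 controls. AKR1B10, an aldo-keto reductase that reduces aldehydes and retinal, ranked 9 with 2888, 2838, 3085 and 2807 FPKM. The ferritin heavy chain FTH1 (1495 FPKM, rank 15), the peroxiredoxin PRDX1 (970 FPKM, rank 19), AKR1C3 (583 FPKM, rank 37) and thioredoxin TXN (546 FPKM, rank 46) followed. At the other end stood the regulators BACH1 (2.37 FPKM), MAFG (3.59 FPKM) and MAFF, the glutathione transferase GSTM3 (1.28 FPKM), the carboxylesterase CES1 (1.40 FPKM) and the glucuronosyltransferase UGT1A6 (1.62 FPKM). NFE2L2 itself averaged 16.5 FPKM and KEAP1 15.8 FPKM. Members together took 3.28% to 4.75% of the counted reads, the highest share being that of TGF-β 2 h replicate 1. The AKR1C1, AKR1C2 and AKR1C3 genes are close copies, FTL and FTH1 have many pseudogenes, and UGT1A6 shares exons with its cluster, so their reads may be split between copies.

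**Figure D1:**
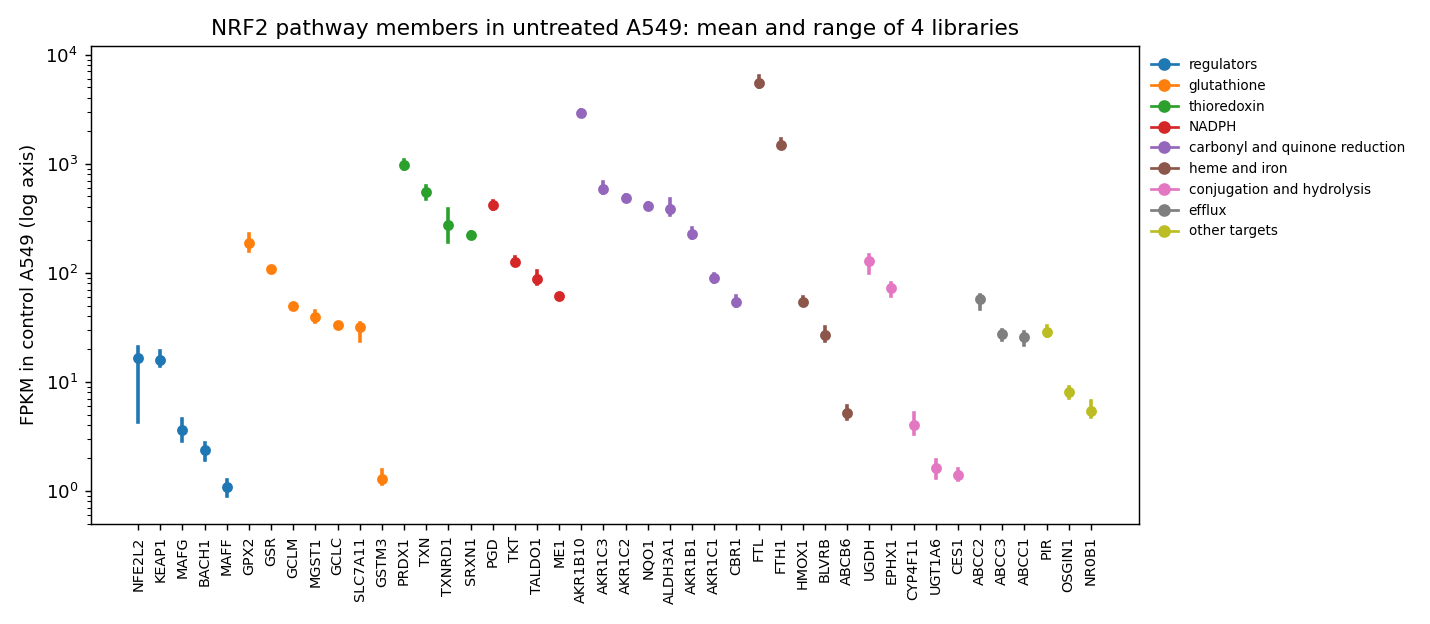
Level of each of the 44 members in untreated A549, in FPKM on a log axis, grouped by role and ordered within a role. Points are means and bars the lowest to the highest of the 4 control libraries. FTL is highest at 5484 FPKM and MAFF lowest at 1.08 FPKM, and the long bar of NFE2L2 comes from a single library at 4.29 FPKM.

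Against this background TGF-β lowered a group of targets and eATP changed few. All counts are of genes with an adjusted p under 0.05 in edgeR's quasi-likelihood test, adjusted over all 20094 genes, with 4 libraries in each group. At 2 h eATP raised 2 members and lowered 1, or 4.55% and 2.27% of 44, where 4.79% of all genes tested were called higher and 3.79% lower. At 6 h of eATP no member was called higher and 2 were called lower (4.55%), against 1.71% higher and 1.28% lower among all genes. In that comparison 8 members had an unadjusted p under 0.05, and DESeq2 called none higher either. In bulk RNA a change in every cell and a change in some of the cells cannot be told apart.

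TGF-β at 2 h raised 3 members (6.82%) and lowered 10 (22.7%), where 7.25% of all genes were called higher and 5.67% lower. At 6 h it raised 2 (4.55%) and lowered 12 (27.3%), against 8.4% and 7.76% of all genes. The control median was 55.6 FPKM for the members and 1.68 FPKM for all genes tested. Shares called among genes of like level were not computed. Without TGF-β 2 h replicate 1, the counts at 2 h were 3 higher and 11 lower. When the controls and TGF-β 2 h libraries were fitted without the other groups, only 4 members were called at 2 h. Of these 2 were higher and 2 lower, the lower being GCLC and ABCC2. The share of all genes called in that fit was not computed. The median log2 change of the 44 members was 0.12 at 2 h and -0.16 at 6 h, and that of all genes 0.02 and -0.01, and 30 of the 44 were not called at 6 h. Of the members lowered, 9 were lowered at both times, which is 90% of those at 2 h and 75% of those at 6 h. HMOX1 was the only member called higher at both. Across the 4 comparisons with control, 25 members were called in none, 8 in 1, 9 in 2 and 2 in 3. The matching shares of all genes were not computed, and these comparisons share the same 4 controls. The overlap is therefore not read as a trait of the members.

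**Figure D2:**
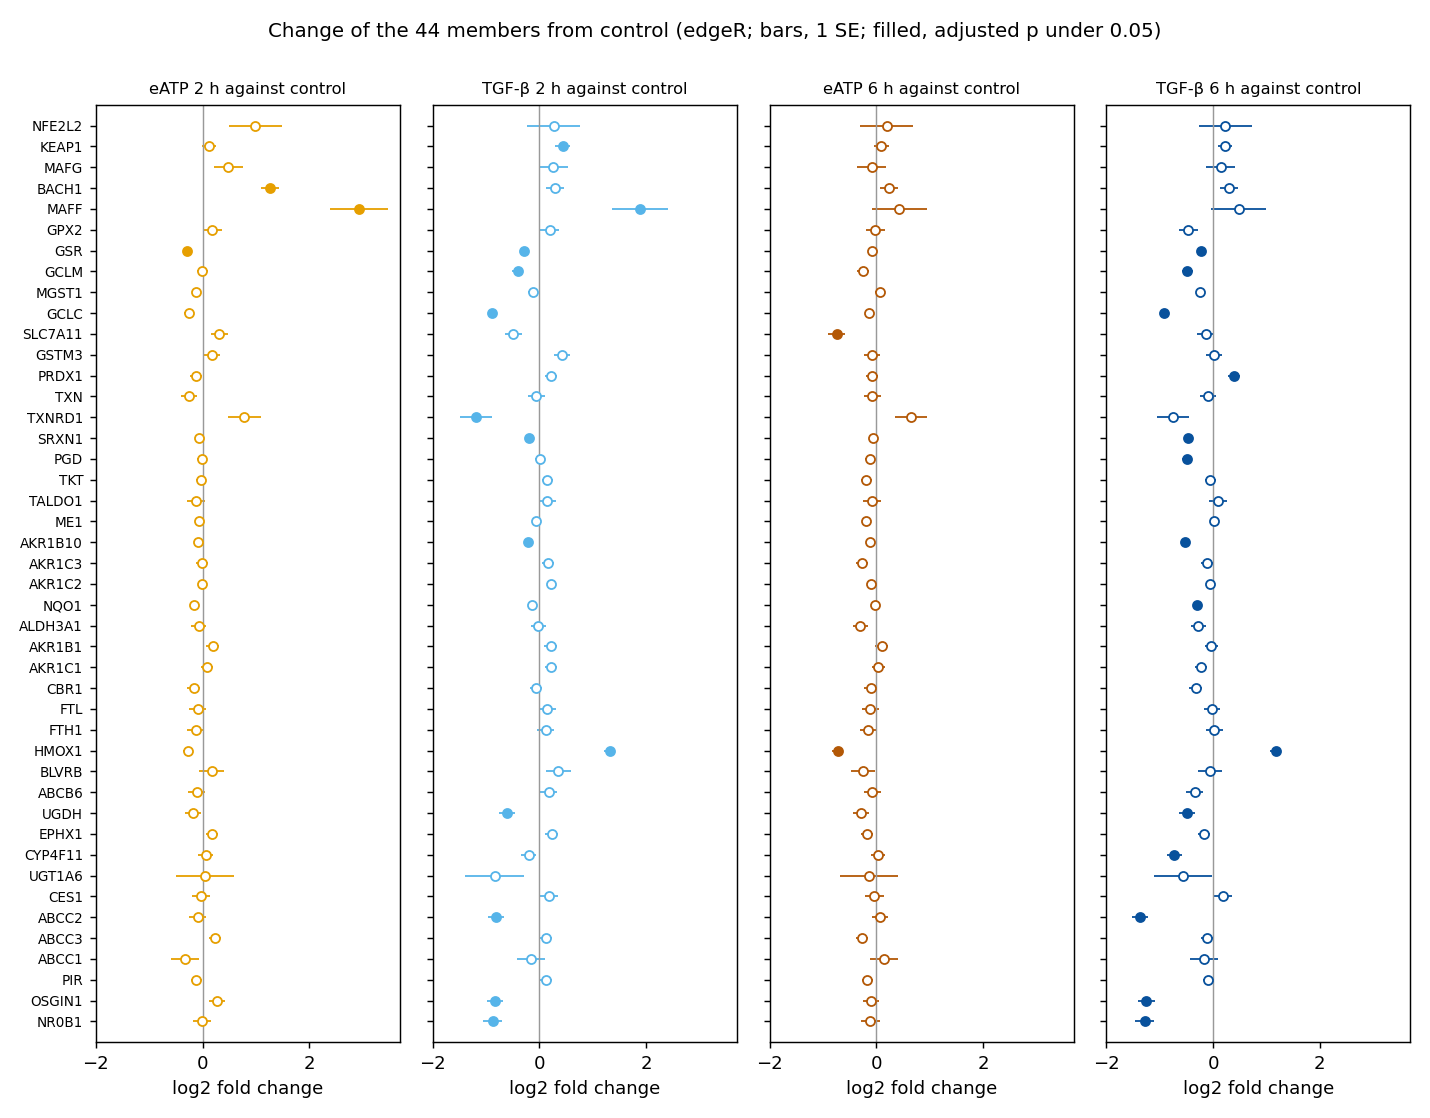
The log2 fold change of each member from control, 1 panel for each treatment and time, with members in the order of the plot of control levels. Points are edgeR estimates, bars are 1 SE, and filled points passed an adjusted p of 0.05. Filled points left of 0 number 10 and 12 in the TGF-β panels at 2 h and 6 h and 1 and 2 in the eATP panels.

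Of the regulators, MAFF and BACH1 rose with eATP at 2 h. MAFF, a small MAF protein that can pair with NRF2, stood at 1.15, 0.899, 1.26 and 0.995 FPKM in control replicates 1 to 4 and at 10.1, 9.46, 9.98 and 3.06 FPKM after 2 h of eATP. All 4 treated libraries lay above the controls, although replicate 4 was well below the other 3, and the log2 fold change was 2.94 (SE 0.54, adjusted p = 0.00137). With TGF-β for 2 h MAFF read 4.16, 2.92, 4.34 and 4.19 FPKM, a log2 fold change of 1.88 (SE 0.52, adjusted p = 0.0217). The call at 2 h of TGF-β was lost without control replicate 1, 2 or 4 (log2 fold change of 1.92, 1.80 and 1.84, adjusted p = 0.0512, 0.0667 and 0.0598). By 6 h the libraries were at 1.98, 1.47, 2.01 and 0.269 FPKM with eATP and 0.36, 1.77, 1.76 and 1.83 FPKM with TGF-β, overlapping the controls in each case.

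BACH1, the repressor at the ARE, was at 2.73, 2.55, 1.90 and 2.31 FPKM in the controls and at 5.19, 5.53, 5.88 and 5.86 FPKM after 2 h of eATP. These groups did not overlap, and the rise of 1.27 on the log2 scale (SE 0.17, adjusted p = 4.6e-05) held in every alternative run. With eATP for 6 h BACH1 was at 2.89, 3.04, 2.58 and 2.50 FPKM. With TGF-β it was at 1.62, 3.04, 3.58 and 3.24 FPKM at 2 h and 3.05, 2.47, 2.52 and 3.004 FPKM at 6 h, overlapping the controls, and neither was called (adjusted p = 0.3 and 0.283).

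NFE2L2 could not be called in any comparison with control. Controls read 20.4, 20.2, 20.9 and 4.29 FPKM, and eATP at 2 h read 30.7, 32.9, 33.1 and 32.4 FPKM. Every eATP 2 h library lay above every control, but control replicate 4 had 1904 reads where the other controls had 9001 to 10568, and the log2 fold change of 0.99 had an SE of 0.50 (adjusted p = 0.294). Left without control replicate 4, the fit gave 0.67 (SE 0.46, adjusted p = 0.507). That fit still took its spread from all 5 groups, TGF-β 2 h replicate 1 among them. With the controls and eATP 2 h alone in the fit the change was 0.99 (SE 0.41, adjusted p = 0.184). TGF-β at 2 h read 2.16, 23.5, 27.3 and 25.9 FPKM, with replicate 1 again far below the rest at 967 reads. At 6 h the levels were 18.6, 18.3, 18.0 and 19.4 FPKM with eATP and 19.9, 18.4, 17.0 and 17.9 FPKM with TGF-β. This narrow range overlapped the controls only through control replicate 4. All these libraries lay below the other controls, which were at 20.2 to 20.9 FPKM.

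KEAP1 was called in 1 comparison and MAFG in none. KEAP1 was at 19.01, 14.5, 14.1 and 15.6 FPKM in the controls and at 27.3, 17.6, 19.8 and 19.1 FPKM after 2 h of TGF-β, groups that overlapped, for a log2 fold change of 0.44 (SE 0.14, adjusted p = 0.0427). This call was lost without TGF-β 2 h replicate 1, where the change was 0.26 (adjusted p = 0.149). It was also lost without control replicate 2, 3 or 4 (0.40, 0.40 and 0.43, adjusted p = 0.124, 0.106 and 0.094). No filter (adjusted p = 0.0652), limma on log2(FPKM + 0.1) (adjusted p = 0.067) and the compared groups alone (adjusted p = 0.211) ended it as well. In the other treated groups KEAP1 ranged from 14.8 to 20.4 FPKM. MAFG, another small MAF, ranged from 2.88 to 4.52 FPKM in the controls, from 4.14 to 5.63 FPKM with eATP and from 2.88 to 6.11 FPKM with TGF-β at 2 h, and from 2.34 to 4.54 FPKM with eATP and from 2.31 to 5.74 FPKM with TGF-β at 6 h. It overlapped the controls in all 4 comparisons. In GENCODE v29 MAFG overlaps SIRT7 on the same strand, so reads of the pair may not be fully separated. In all, 6 members overlapped a gene with reads on the same strand. The others were NFE2L2, GCLC, TXNRD1 (with RPL18AP3 and EID3), ABCB6 (with AC068946.2) and UGT1A6. AC068946.2 had 1 to 428 reads and ABCB6 1152 to 2935. RPL18AP3 had 1383 to 3732 reads and TXNRD1 27935 to 295171.

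**Figure D3:**
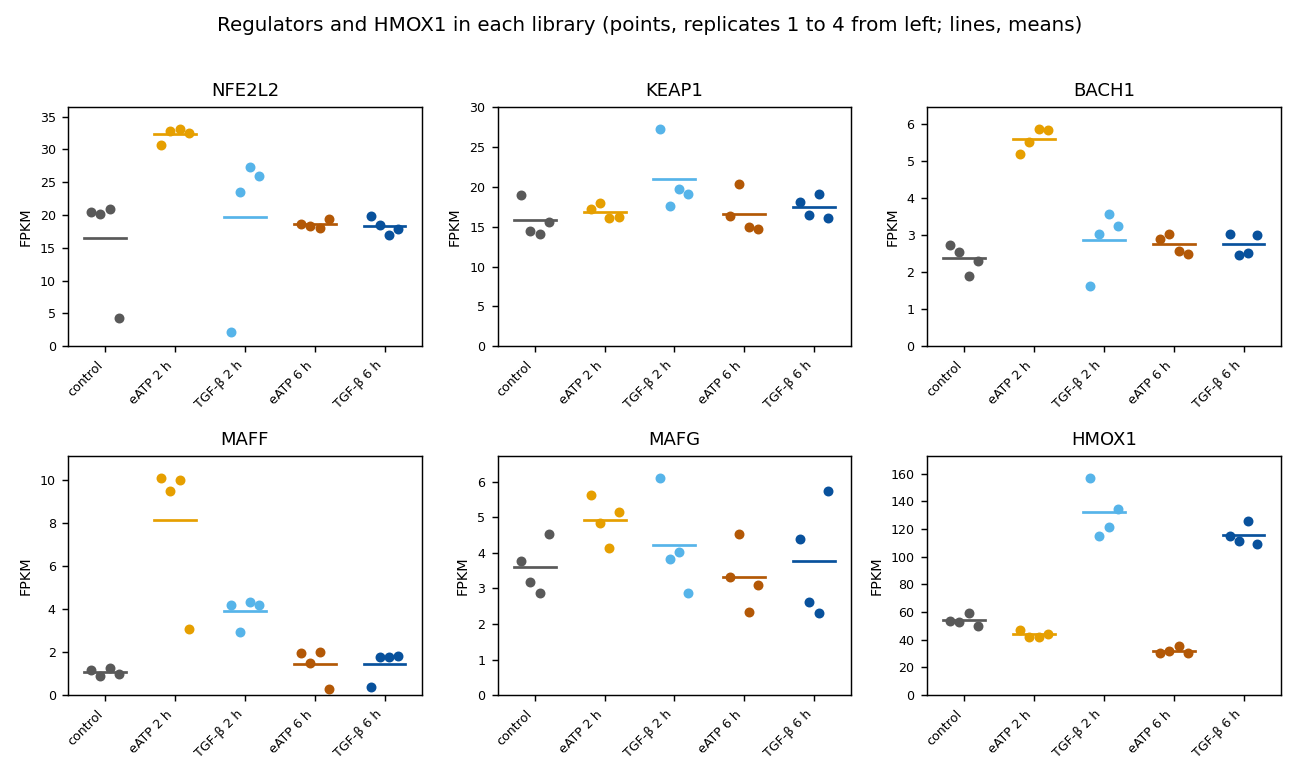
FPKM of NFE2L2, KEAP1, BACH1, MAFF, MAFG and HMOX1 in each of the 20 libraries, 5 groups on the horizontal axis, 4 points for replicates 1 to 4 from left to right and a line at the group mean. BACH1 and MAFF stand highest with eATP at 2 h, NFE2L2 has single low libraries at 4.29 and 2.16 FPKM, and HMOX1 is at 109 FPKM or more in all 8 TGF-β libraries.

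HMOX1, heme oxygenase 1, which breaks heme into iron, carbon monoxide and biliverdin, moved in opposite directions with the inducers. Controls were at 53.6, 52.6, 59.4 and 50.3 FPKM. TGF-β took HMOX1 to 157, 115, 122 and 135 FPKM at 2 h and 115, 112, 126 and 109 FPKM at 6 h. All 8 libraries lay above every control, with log2 fold changes of 1.32 at 2 h (SE 0.10, adjusted p = 4.06e-08) and 1.18 at 6 h (SE 0.10, adjusted p = 9.51e-08). eATP gave 47.1, 42.1, 42.2 and 44.5 FPKM at 2 h, all below the controls although not called (-0.27, adjusted p = 0.115). At 6 h of eATP HMOX1 was at 30.6, 31.8, 35.7 and 30.3 FPKM and had fallen by 0.73 on the log2 scale (SE 0.10, adjusted p = 0.000287). The direct comparison of the inducers gave log2 differences of 1.60 at 2 h (adjusted p = 2.97e-09) and 1.90 at 6 h (adjusted p = 2.41e-10), TGF-β being higher in all libraries. None of these HMOX1 calls was lost in any alternative.

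The other members for heme and iron were not called against control. FTL ranged from 4508 to 8528 FPKM and FTH1 from 1132 to 2225 FPKM over all 20 libraries, the highest of each being TGF-β 2 h replicate 1. BLVRB, a biliverdin reductase, and ABCB6, a porphyrin transporter, had log2 fold changes between -0.34 and 0.36 in the 4 comparisons.

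Transcripts of both subunits of the enzyme that starts glutathione synthesis fell with TGF-β. GCLC, the catalytic subunit of this glutamate-cysteine ligase, read 33.3, 34.0, 31.2 and 34.7 FPKM in the controls, 13.5, 20.2, 18.9 and 18.3 FPKM at 2 h of TGF-β and 17.1, 16.3, 16.3 and 17.1 FPKM at 6 h. No TGF-β library reached the lowest control, and GCLC fell by 0.89 on the log2 scale at 2 h (SE 0.08, adjusted p = 4.58e-07) and by 0.92 at 6 h (SE 0.08, adjusted p = 1.54e-07). eATP left it at 26.9, 27.1, 28.2 and 27.2 FPKM at 2 h, also below every control but not past the threshold (-0.26, adjusted p = 0.0571), and at 30.7, 29.4, 27.0 and 32.1 FPKM at 6 h.

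GCLM, the modifier subunit of the same enzyme, whose upstream sequence is printed above, read 48.7, 51.3, 47.5 and 49.5 FPKM in the controls. TGF-β gave 24.7, 41.4, 41.4 and 38.9 FPKM at 2 h and 34.3, 32.9, 32.1 and 34.3 FPKM at 6 h, again below every control, with falls measuring 0.41 (SE 0.11, adjusted p = 0.0151) and 0.48 (SE 0.11, adjusted p = 0.00338) on the log2 scale. With the controls and TGF-β 2 h alone in the fit, the 2 h call was lost (adjusted p = 0.149), and without TGF-β 2 h replicate 1 the fall was 0.27. With eATP GCLM was at 46.0, 45.4, 50.4 and 51.3 FPKM at 2 h, among the controls, and at 41.4, 42.4, 37.0 and 43.0 FPKM at 6 h, below them and not called (adjusted p = 0.314).

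SLC7A11, the cystine importer of the xCT system that feeds glutathione synthesis, had the largest difference in time course between the inducers of the 44. Controls were at 33.8, 34.0, 23.7 and 34.2 FPKM. eATP gave 38.5, 38.6, 38.9 and 37.8 FPKM at 2 h and 18.9, 20.6, 14.6 and 20.1 FPKM at 6 h, so that the libraries lay above every control at 2 h and below every control at 6 h. Only the fall at 6 h was called against control (-0.74, SE 0.16, adjusted p = 0.0139), and it was lost without control replicate 1 (-0.69, adjusted p = 0.0516) or without eATP 6 h replicate 3 (-0.63, adjusted p = 0.0534). TGF-β gave 13.5, 25.6, 27.2 and 21.9 FPKM at 2 h and 26.8, 25.6, 24.4 and 31.1 FPKM at 6 h, overlapping the controls both times. At 2 h the change with TGF-β was -0.49 (SE 0.16, adjusted p = 0.051). It was -0.33 (adjusted p = 0.106) without TGF-β 2 h replicate 1, and it was called without control replicate 3 (-0.60, adjusted p = 0.0195), without TGF-β 2 h replicate 2 (-0.56, adjusted p = 0.0425) or 3 (-0.60, adjusted p = 0.0234) and by DESeq2 (-0.49, adjusted p = 0.0281).

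GSR, glutathione reductase, fell slightly in 3 of the 4 comparisons. It was at 104, 109, 110 and 110 FPKM in the controls, at 87.1, 95.4, 85.1 and 79.5 FPKM with eATP at 2 h, at 76.7, 80.6, 97.1 and 93.2 FPKM with TGF-β at 2 h and at 87.0, 80.9, 90.2 and 92.1 FPKM with TGF-β at 6 h. All 12 of these libraries lay below every control. Each fall was small, at 0.29 (adjusted p = 0.013), 0.29 (adjusted p = 0.0102) and 0.23 (adjusted p = 0.0371) on the log2 scale with an SE of 0.07. The eATP call was lost without eATP 2 h replicate 4 (-0.26, adjusted p = 0.0555), and the TGF-β 6 h call without control replicate 2, 3 or 4 (adjusted p = 0.0726, 0.0883 and 0.0774) or TGF-β 6 h replicate 1 or 2 (adjusted p = 0.0738 and 0.12). The TGF-β 6 h call was also lost with no filter (adjusted p = 0.054). The TGF-β 2 h call was lost with the controls and that group alone in the fit (adjusted p = 0.102). With eATP at 6 h GSR returned to 99.9, 106, 94.8 and 105 FPKM. The peroxidase GPX2, the transferase GSTM3 and the microsomal transferase MGST1 were not called against control, with log2 changes between -0.46 and 0.42.

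In the thioredoxin system TXNRD1, the reductase that recycles thioredoxin with NADPH, was lowered by TGF-β. Controls spread widely, at 289, 232, 191 and 381 FPKM. TGF-β gave 52.9, 141, 151 and 128 FPKM at 2 h, all below the controls, a fall of 1.19 on the log2 scale (SE 0.31, adjusted p = 0.0132). This call was lost without control replicate 4 (-0.99, adjusted p = 0.0545) and with those groups alone in the fit (adjusted p = 0.0655). At 6 h it read 118, 192, 80.5 and 223 FPKM, which overlapped the controls (-0.76, adjusted p = 0.108). eATP went the other way, with 481, 502, 382 and 488 FPKM at 2 h and 336, 471, 393 and 482 FPKM at 6 h, without a call against control (0.79 and 0.65, adjusted p = 0.139 and 0.364). The inducers differed by -1.98 at 2 h (SE 0.31, adjusted p = 0.000237) and by -1.40 at 6 h (SE 0.31, adjusted p = 0.00292), TGF-β minus eATP, and in neither case did the groups overlap.

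SRXN1, sulfiredoxin, which repairs over-oxidized peroxiredoxins, stood at 219, 224, 235 and 216 FPKM in the controls, 180, 183, 204 and 201 FPKM at 2 h of TGF-β and 160, 144, 155 and 152 FPKM at 6 h. Its fall was 0.19 at 2 h (SE 0.05, adjusted p = 0.021) and 0.47 at 6 h (SE 0.05, adjusted p = 2.87e-06) on the log2 scale. At 2 h the call was lost without control replicate 3 (-0.16, adjusted p = 0.0714) or TGF-β 2 h replicate 2 (-0.16, adjusted p = 0.0643). No filter (adjusted p = 0.0655) and the compared groups alone (adjusted p = 0.22) also ended it. At 6 h the call held in every alternative. With eATP SRXN1 was between 207 and 216 FPKM at both times, uncalled. PRDX1, the peroxiredoxin that removes hydrogen peroxide, rose at 6 h of TGF-β, from 942, 978, 1077 and 885 FPKM to 1169, 1240, 1326 and 1090 FPKM, by 0.39 (SE 0.11, adjusted p = 0.0221). Its groups did not overlap, but 5 single omissions ended the call, namely control replicate 1, 2 or 4 (adjusted p = 0.0621, 0.0511 and 0.0756) and TGF-β 6 h replicate 2 or 3 (adjusted p = 0.056 and 0.0977). Limma on log2(FPKM + 0.1) also ended the PRDX1 call (adjusted p = 0.0548). TXN was not called.

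Of the members listed under NADPH only PGD, 6-phosphogluconate dehydrogenase of the pentose phosphate pathway, was called. It went from 402, 380, 450 and 445 FPKM in the controls to 290, 284, 263 and 298 FPKM at 6 h of TGF-β, a fall of 0.49 on the log2 scale (SE 0.09, adjusted p = 0.00095) with no overlap. At 2 h of TGF-β it was at 461, 371, 370 and 445 FPKM, overlapping the controls (adjusted p = 0.999). The transaldolase TALDO1, the transketolase TKT and the malic enzyme ME1 stayed between -0.20 and 0.15 on the log2 scale in all 4 comparisons, and none was called.

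Among the carbonyl and quinone reductases AKR1B10 and NQO1 fell with TGF-β. AKR1B10 read 2575, 2463, 2389 and 2435 FPKM at 2 h and 1936, 1918, 1904 and 1856 FPKM at 6 h, below the control values given above and without overlap. The falls on the log2 scale were 0.21 (SE 0.06, adjusted p = 0.0156) and 0.53 (SE 0.06, adjusted p = 1.01e-06), and the latter held throughout. The 2 h call was lost without control replicate 3 (-0.17, adjusted p = 0.0554). It was also lost with no filter (adjusted p = 0.0596) and with those groups alone in the fit (adjusted p = 0.217). With eATP it was at 2738, 2672, 2612 and 2804 FPKM at 2 h and 2596, 2706, 2696 and 2607 FPKM at 6 h, all under the lowest control of 2807 FPKM but not called (adjusted p = 0.497 and 0.417). NQO1, the quinone reductase often used as a readout of NRF2, was at 401, 405, 436 and 391 FPKM in the controls and 318, 311, 323 and 305 FPKM at 6 h of TGF-β, a fall of 0.30 (SE 0.07, adjusted p = 0.00275) that held in every alternative. At 2 h of TGF-β NQO1 read 389, 356, 343 and 359 FPKM, below each control and not called (-0.15, adjusted p = 0.165). The reductases AKR1B1, AKR1C1, AKR1C2, AKR1C3 and CBR1 and the aldehyde dehydrogenase ALDH3A1 were not called against control, with changes between -0.32 and 0.22.

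UGDH, which makes UDP-glucuronic acid for conjugation, and CYP4F11, a fatty acid hydroxylase, fell with TGF-β. UGDH was at 131, 146, 133 and 100 FPKM in the controls, 84.3, 105, 71.6 and 67.2 FPKM at 2 h and 87.2, 91.1, 87.5 and 79.1 FPKM at 6 h of TGF-β. The groups overlapped at 2 h, where 1 treated library exceeded control replicate 4, and not at 6 h. Its falls measured 0.61 (SE 0.15, adjusted p = 0.00833) and 0.49 (SE 0.15, adjusted p = 0.0281) on the log2 scale. The 2 h call was lost with the controls and TGF-β 2 h alone in the fit (adjusted p = 0.0784). The 6 h call was lost without control replicate 1, 2 or 3 (adjusted p = 0.0578, 0.0943 and 0.0683) or TGF-β 6 h replicate 1 or 4 (adjusted p = 0.0544 and 0.0806). CYP4F11 went from 3.58, 5.14, 3.30 and 3.92 FPKM to 2.51, 2.40, 2.03 and 2.16 FPKM at 6 h of TGF-β, a fall of 0.73 (SE 0.14, adjusted p = 0.000974) without overlap. EPHX1, CES1 and UGT1A6 were not called. UGT1A6 was erratic, from 0.176 to 1.98 FPKM within TGF-β 2 h.

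The exporter ABCC2, also named MRP2, which moves glutathione and glucuronide conjugates out of the cell, fell furthest at 6 h. Controls were at 61.6, 57.8, 46.7 and 62.4 FPKM, TGF-β gave 19.6, 39.3, 38.0 and 30.8 FPKM at 2 h and 21.5, 19.4, 18.1 and 24.5 FPKM at 6 h. No TGF-β library reached a control, and the falls at 2 h and 6 h were 0.82 (SE 0.15, adjusted p = 0.00106) and 1.37 (SE 0.15, adjusted p = 2.55e-06) on the log2 scale. eATP left ABCC2 at 55.5, 52.7, 53.5 and 48.8 FPKM at 2 h and 59.7, 64.5, 50.6 and 60.7 FPKM at 6 h, within or near the controls. Its relatives ABCC1 and ABCC3 were not called against control, and ABCC1 had 7.34 FPKM in TGF-β 2 h replicate 1 where the other 3 libraries had 27.2 to 28.9 FPKM.

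OSGIN1, an oxidative stress induced growth inhibitor, and NR0B1, the orphan nuclear receptor DAX1, were also lower at both times of TGF-β. OSGIN1 read 7.95, 7.87, 9.03 and 7.05 FPKM in the controls, 6.14, 3.37, 3.78 and 4.19 FPKM at 2 h and 3.47, 2.92, 3.28 and 3.01 FPKM at 6 h of TGF-β, with falls measuring 0.84 (SE 0.15, adjusted p = 0.000994) and 1.25 (SE 0.16, adjusted p = 8.86e-06). After 2 h of eATP OSGIN1 was at 10.1, 9.79, 9.12 and 9.05 FPKM, above every control and not called (0.27, adjusted p = 0.361), and after 6 h at 6.53, 7.73, 8.14 and 7.01 FPKM. NR0B1 read 5.42, 4.97, 6.65 and 4.73 FPKM in the controls, 4.13, 2.11, 2.52 and 2.85 FPKM at 2 h and 1.92, 2.09, 2.23 and 2.23 FPKM at 6 h of TGF-β, with falls measuring 0.87 (SE 0.18, adjusted p = 0.00236) and 1.28 (SE 0.18, adjusted p = 3.61e-05). No TGF-β library of either gene reached a control. With controls and TGF-β 2 h alone in the fit the 2 h calls of OSGIN1 and NR0B1 were lost (adjusted p = 0.0602 and 0.0783). NR0B1 stayed between 4.48 and 5.99 FPKM with eATP. PIR, an iron-binding nuclear protein, was not called.

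**Figure D4:**
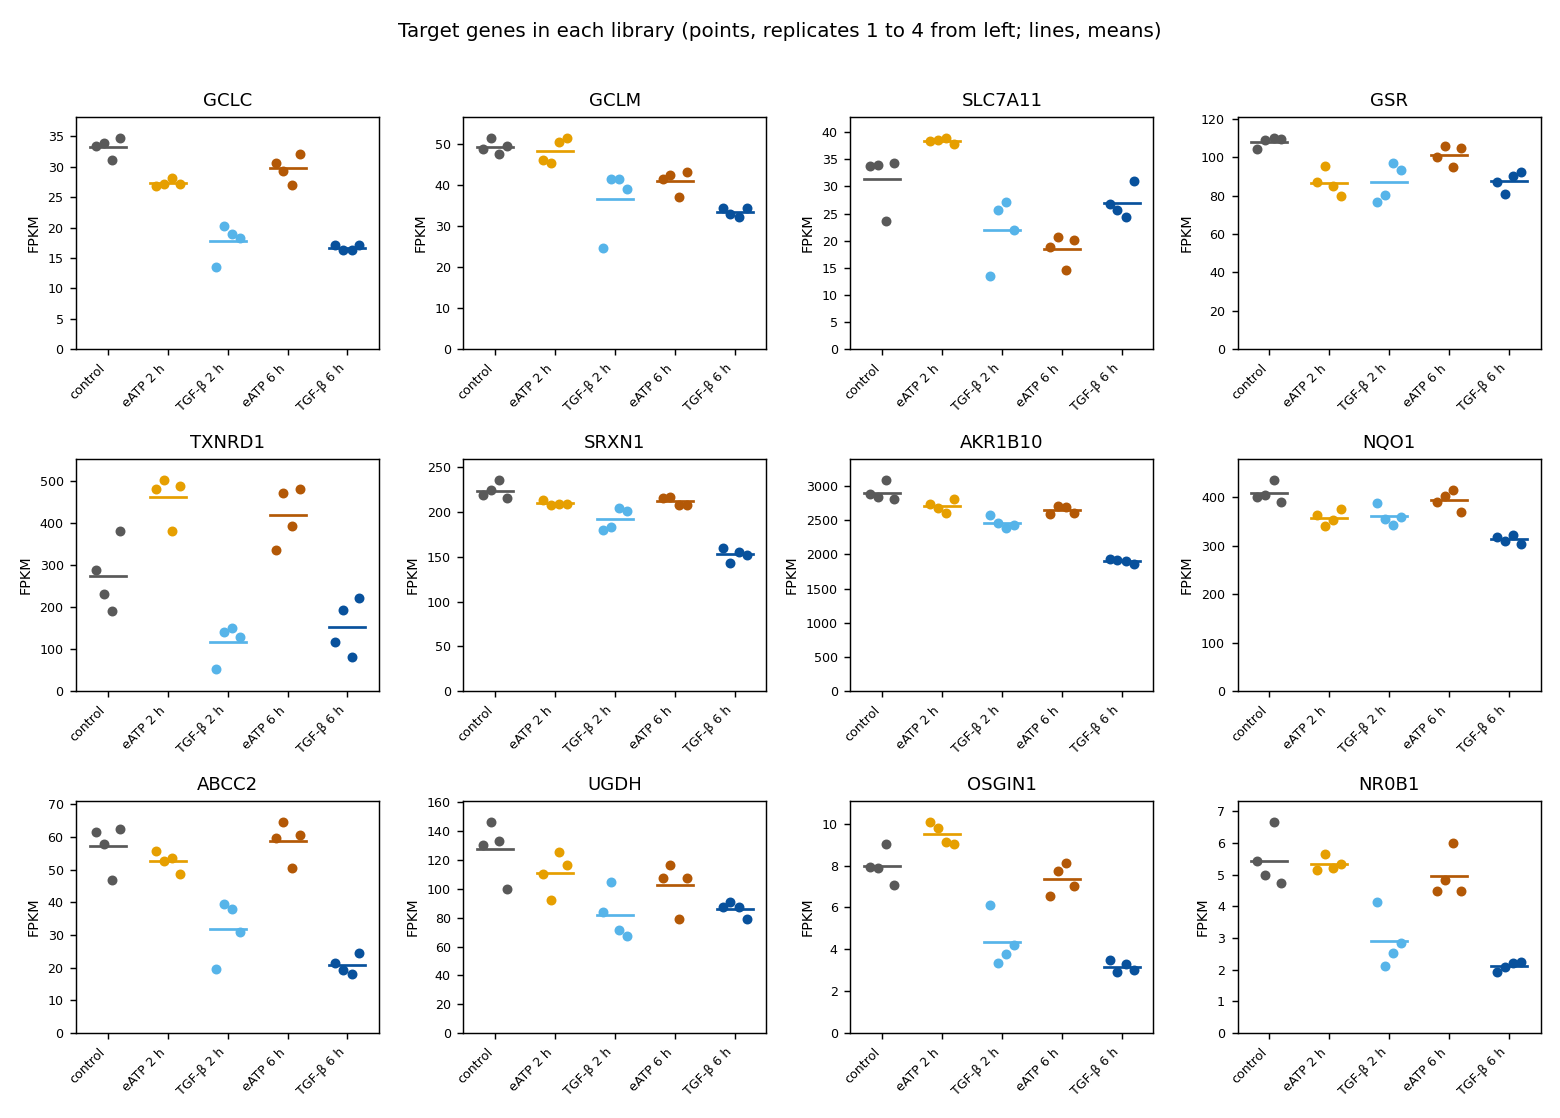
FPKM of 12 target genes in each of the 20 libraries, 5 groups on the horizontal axis, points for replicates 1 to 4 from left to right and lines at the group means, each vertical axis starting at 0. GCLC, SRXN1, AKR1B10, ABCC2, OSGIN1 and NR0B1 are lowest with TGF-β at 6 h, SLC7A11 is highest with eATP at 2 h and lowest with eATP at 6 h by group mean, and TXNRD1 is high in the eATP groups and low in the TGF-β groups.

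The members not called stayed in a limited range. With eATP the 41 uncalled at 2 h lay between -0.33 and 0.99 on the log2 scale and the 42 uncalled at 6 h between -0.30 and 0.65. With TGF-β the 31 uncalled at 2 h lay between -0.84 and 0.42 and the 30 uncalled at 6 h between -0.76 and 0.48. The ends of these ranges were noisy genes, among them NFE2L2 at 0.99, UGT1A6 at -0.84 and TXNRD1 at 0.65 and -0.76. For these the spread in the fit of all groups was too wide for a call. In NFE2L2, control replicate 4 and TGF-β 2 h replicate 1 lay far below the other libraries of their groups.

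No untreated group was labelled 2 h or 6 h, so a change between these times cannot be told apart from time in culture. With eATP 5 members were lower at 6 h than at 2 h and none was higher, where 6.01% of all genes were called higher and 6.57% lower. These were MAFF (-2.50, SE 0.53, adjusted p = 0.00363), SLC7A11 (-1.05, SE 0.16, adjusted p = 0.000184), BACH1 (-1.03, SE 0.17, adjusted p = 0.000336), the exporter ABCC3 (-0.50, SE 0.11, adjusted p = 0.00554) and HMOX1 (-0.45, SE 0.10, adjusted p = 0.00515). All of them except HMOX1 had a 2 h mean above the control mean. With TGF-β 10 members were lower at 6 h than at 2 h and none was higher, with 5.49% of all genes higher and 6.58% lower. They were GPX2 (-0.65), ABCC2 (-0.56), CYP4F11 (-0.53), ABCB6 (-0.52), PGD (-0.49), AKR1C1 (-0.46), EPHX1 (-0.40), AKR1B10 (-0.32), SRXN1 (-0.28) and AKR1C2 (-0.27). At an unadjusted p under 0.05 there were 11 members for eATP and 19 for TGF-β, and DESeq2 called 1 higher and 6 lower for eATP and 0 higher and 11 lower for TGF-β. With the TGF-β groups alone in the fit only PGD and AKR1B10 were called, and these held in every alternative. Without TGF-β 6 h replicate 4 only 6 of the TGF-β calls were made, GPX2, EPHX1, CYP4F11 and AKR1C2 being lost (adjusted p = 0.0756, 0.0827, 0.0518 and 0.0757). Leaving out TGF-β 2 h replicate 1 ended the calls of GPX2 (-0.52, adjusted p = 0.0544), ABCB6 (-0.38, adjusted p = 0.11) and EPHX1 (-0.27, adjusted p = 0.0569), and leaving out replicate 4 of that group ended the same 3 (adjusted p = 0.0594, 0.0713 and 0.0519). ABCC2 was lost without TGF-β 2 h replicate 2 or 3 (-0.46 and -0.47, adjusted p = 0.0699 and 0.072) or TGF-β 6 h replicate 2 or 3 (-0.53 and -0.51, adjusted p = 0.0608 and 0.0544). CYP4F11 was also lost without TGF-β 2 h replicate 2 (adjusted p = 0.0528), ABCB6 without TGF-β 6 h replicate 1 or 2 (adjusted p = 0.0937 and 0.132) and EPHX1 without TGF-β 6 h replicate 1 (adjusted p = 0.0748).

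Set directly against each other at 2 h, TGF-β was higher than eATP for 1 member and lower for 8, where 4.93% of all genes were higher and 4.16% lower. HMOX1 was the higher one. TXNRD1 (-1.98), OSGIN1 (-1.11), BACH1 (-0.97), NR0B1 (-0.87), SLC7A11 (-0.81), ABCC2 (-0.72), GCLC (-0.63) and GCLM (-0.40) were lower. The GCLM difference was lost without eATP 2 h replicate 3 or 4 (adjusted p = 0.0643 and 0.066) and was -0.27 (adjusted p = 0.0044) without TGF-β 2 h replicate 1. With only the 2 h groups in the fit, the differences of GCLM, ABCC2 and NR0B1 were lost (adjusted p = 0.22, 0.0687 and 0.0544). At 6 h TGF-β was higher for 4 members and lower for 11, against 8.97% and 8.66% of all genes. Higher were HMOX1 (1.90), SLC7A11 (0.60, adjusted p = 0.0129), PRDX1 (0.47, adjusted p = 0.00632) and ME1 (0.21, adjusted p = 0.0243). Lower were ABCC2 (-1.44), TXNRD1 (-1.40), NR0B1 (-1.17), OSGIN1 (-1.16), GCLC (-0.78), CYP4F11 (-0.76), AKR1B10 (-0.42), SRXN1 (-0.42), PGD (-0.38), MGST1 (-0.31) and NQO1 (-0.27). SLC7A11 was thus lower with TGF-β than with eATP at 2 h and higher at 6 h. The calls at 6 h that single libraries ended were SLC7A11 without eATP 6 h replicate 3 (0.47, adjusted p = 0.0562), MGST1 without TGF-β 6 h replicate 4 (-0.26, adjusted p = 0.0708) and ME1 without eATP 6 h replicate 1 or 3 or TGF-β 6 h replicate 1 or 3 (adjusted p = 0.079, 0.097, 0.0567 and 0.101).

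Whether the course from 2 h to 6 h differed between the inducers was tested as an interaction, TGF-β change minus eATP change. It was called positive for 2 members and negative for 2, with 3.1% of all genes positive and 3.02% negative. SLC7A11 gave 1.40 (SE 0.23, adjusted p = 0.000555) and BACH1 1.03 (SE 0.24, adjusted p = 0.011), since both fell between the times with eATP and not with TGF-β. SRXN1 (-0.29, SE 0.08, adjusted p = 0.025) and AKR1B10 (-0.29, SE 0.08, adjusted p = 0.0314) had negative values. SRXN1 changed by -0.28 between the TGF-β times and by 0.01 between the eATP times, and AKR1B10 by -0.32 and -0.03, neither eATP change being called. The SLC7A11 and BACH1 values held in every alternative. SRXN1 was lost without eATP 2 h replicate 2, TGF-β 2 h replicate 3 or 4, eATP 6 h replicate 2 or TGF-β 6 h replicate 2 (adjusted p = 0.052, 0.0511, 0.0615, 0.0533 and 0.0598). AKR1B10 was lost without eATP 2 h replicate 1, 2 or 3, eATP 6 h replicate 2 or TGF-β 6 h replicate 2 or 4 (adjusted p = 0.057, 0.0635, 0.0684, 0.061, 0.0504 and 0.0641). Without TGF-β 2 h replicate 1 the count of members was 9 in place of 4.

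Other genes of the pathway were read from a list of 33 further regulators and targets, of which all passed the filter on low values. With eATP 1 was called higher and 1 lower at 2 h, and none at 6 h, where 4 had an unadjusted p under 0.05 in edgeR's test. With TGF-β 2 were called higher and 2 lower at 2 h, and 0 higher and 3 lower at 6 h. The shares lower with TGF-β, 6.06% at 2 h and 9.09% at 6 h, were near the 5.67% and 7.76% of all genes given above. BACH2, the relative of BACH1 known from B cells, rose from a mean of 0.0194 FPKM to 0.210 FPKM with eATP at 2 h (3.38, SE 0.45, adjusted p = 4.51e-05) and to 0.173 FPKM with TGF-β at 2 h (3.10, SE 0.45, adjusted p = 7.99e-05). It stayed a scarce transcript, with 12 to 19 reads in a control and 121 to 256 reads after eATP. BACH2 reached 0.1 FPKM in 7 of the 20 libraries, none of them a control. It passed the filter only through treated libraries, so its rise is not independent of that filter. MAFK, the remaining small MAF, was higher with TGF-β at 2 h (1.65, SE 0.41, adjusted p = 0.0107), where 3 libraries read 42.3, 43.0 and 43.1 FPKM and replicate 2 read 12.05 FPKM, within the control range of 4.86 to 15.7 FPKM. TGF-β at 2 h lowered BTRC (-0.68, adjusted p = 0.0231), a subunit of another ligase that targets NRF2, and SQSTM1 (-0.35, adjusted p = 0.00473), the autophagy receptor p62 that binds KEAP1. At 6 h it lowered the ferrochelatase FECH (-0.84, adjusted p = 0.00162), the NADP-dependent isocitrate dehydrogenase IDH1 (-0.50, adjusted p = 0.0189) and the transferase GSTA4 (-0.44, adjusted p = 0.00643). eATP lowered SLC3A2, the partner chain of SLC7A11, at 2 h (-0.40, adjusted p = 0.0203). These calls were not rerun under the alternatives.

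Antioxidant genes that are mainly under other control were followed in 15 genes as a contrast. Of these eATP lowered 1 at 2 h, the stress protein SESN2 (-0.73, SE 0.13, adjusted p = 0.00124), and none was called at 6 h. TGF-β changed none at 2 h and, at 6 h, raised CHAC1, a glutathione-degrading enzyme (1.43, SE 0.24, adjusted p = 0.000307), and SESN2 (0.97, SE 0.13, adjusted p = 2.77e-05) and lowered catalase CAT (-0.45, SE 0.10, adjusted p = 0.00261). CHAC1 went from 1.49, 0.803, 0.979 and 1.49 FPKM in the controls to 2.81, 3.50, 3.09 and 2.78 FPKM, without overlap. Among all genes tested, eATP had 4.79% higher and 3.79% lower at 2 h and 1.71% and 1.28% at 6 h. For TGF-β the shares were 7.25% and 5.67% at 2 h and 8.4% and 7.76% at 6 h. A single gene is 6.67% of this list, so its counts are not read as a difference from all genes.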

How the data were processed

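Poly(A) RNA from 20 A549 samples was sequenced in stranded libraries. The deposited table holds gene read counts and FPKM values that the authors made; HISAT2, StringTie and edgeR are named, with neither version nor role, in the processing notes of the submitters. The build of the genome they aligned to was not given in the sources used here. A read count of 0 is listed at an FPKM of 1e-04. No column of per-sample values was left unused (0 columns).

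Counts of genes with at least 0.1 FPKM in 4 or more of the 20 libraries (20094 genes) were fitted with edgeR 4.0.16 in R 4.3.3, using TMM scaling, 1 model in which each of the 5 groups had its mean, and the quasi-likelihood F test, two-sided. P-values were adjusted by Benjamini-Hochberg over all genes, and an adjusted p under 0.05 was a call. The SE was taken from the fold change and the F statistic. Levels are FPKM as deposited. The fold changes come from the counts. For the members, the log2 ratio of mean FPKM minus the count-based change had a median of -0.077 at 6 h of TGF-β. In the other comparisons with control that median was between -0.028 and -0.021. The scripts were tested on simulated data.

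The members, the lists of other genes and the tests were chosen with earlier results of these data known, so they are not independent evidence. Called members are named in each comparison with control, up to 12 in a direction, and up to 5 called genes of the list of other pathway genes. Values per library are given for members called in 2 or more such comparisons and for NFE2L2, KEAP1, BACH1, MAFF, MAFG and HMOX1, and for a few others whose groups were being compared, which were picked after their values were seen. Alternatives were no filter, a filter of 1 FPKM, DESeq2 1.42.0 size factors, the DESeq2 test, limma 3.58.1 on log2(FPKM + 0.1) or log2(FPKM + 1), a fit restricted to the groups compared, a block for the replicate number, and leaving out each library. All 44 members matched GENCODE v29 by gene ID. A further gene of the other pathway list is not reported here. The study's text states another number of replicates than the labels, which were followed.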

Additional observations from a re-analysis of the deposited data

Results flagged for a closer look

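In a group of 4 libraries, a value was singled out when its gap to the nearest of the others divided by the group's whole range exceeded Dixon's 95% critical value. Among 220 groups of a member, 18 values were singled out, 6 of them in TGF-β 2 h replicate 1 and 12 in other libraries, where chance alone gives about 1 in 20, or 11. In FPKM, the values in TGF-β 2 h replicate 1 were NFE2L2 at 2.157 (others 23.5 to 27.3), GCLM at 24.66 (38.9 to 41.4), TALDO1 at 138 (75.6 to 85.3), CBR1 at 64.7 (44.6 to 47.2), FTL at 8528 (4857 to 5467) and ABCC1 at 7.343 (27.2 to 28.9).

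In the controls, NFE2L2 was at 4.293 FPKM in replicate 4 (others 20.2 to 20.9) and SLC7A11 at 23.67 in replicate 3 (others 33.8 to 34.2). With eATP at 2 h, MAFF was at 3.058 FPKM in replicate 4 (others 9.46 to 10.1), ALDH3A1 at 416.9 in replicate 1 (others 335 to 343), BLVRB at 42.83 in replicate 2 (others 24.6 to 26.5), FTH1 at 1239 in replicate 4 (others 1385 to 1398) and ABCC1 at 15.46 in replicate 2 (others 21.3 to 22.4). With eATP at 6 h, FTH1 was at 1549 FPKM in replicate 3 (others 1241 to 1262) and CYP4F11 at 4.687 in replicate 4 (others 3.68 to 3.83). With TGF-β, MAFF was at 2.924 FPKM in replicate 2 at 2 h (others 4.16 to 4.34) and at 0.3602 in replicate 1 at 6 h (others 1.76 to 1.83), and AKR1B1 at 189.8 in replicate 4 at 6 h (others 213 to 215).

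The course from 2 h to 6 h differed between the inducers for 4 members by the interaction test, with log2 values (TGF-β change minus eATP change) of 1.031 for BACH1, 1.401 for SLC7A11, -0.2944 for SRXN1 and -0.2928 for AKR1B10.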

How the results depend on the processing

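The 75 calls of a member in a comparison kept their direction in every alternative. All 75 were kept with the filter of 1 FPKM, with DESeq2 size factors and with the DESeq2 test, 74 with limma on log2(FPKM + 1), 72 with limma on log2(FPKM + 0.1), 68 without a filter and 55 with the compared groups alone, which estimates the spread from fewer libraries. Leaving out 1 library at a time kept 566 of 632. The number of members called moved by more than 1.5 times as follows. With the compared groups alone it was 6 in place of 3 for eATP at 2 h, 4 in place of 13 for TGF-β at 2 h, 11 in place of 5 for eATP between the times and 2 in place of 10 for TGF-β between the times. Limma on log2(FPKM + 1) gave 5 for eATP at 2 h. For the interaction the 1 FPKM filter and DESeq2 each gave 7 in place of 4. With single libraries left out, the counts ranged from 1 to 2 for eATP at 6 h, from 6 to 10 for TGF-β between the times and from 2 to 9 for the interaction, with 2 without replicate 2 of eATP 2 h, eATP 6 h or TGF-β 6 h. NFE2L2 at 2 h of TGF-β changed sign, from 0.27 to -0.0034 with limma on log2(FPKM + 0.1) and from -0.0483 to 0.64 with single libraries left out. The cause of these changes was not tested.

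With the replicate number as a block, 72 of the 75 calls were kept, and the lost ones were GSR at 6 h of TGF-β (adjusted p = 0.0546), ABCB6 between the TGF-β times (adjusted p = 0.0504) and AKR1B10 in the interaction (adjusted p = 0.0517). Deviations of libraries with the same number had r from -0.262 to 0.240 (median 0.0091, 7 of 40 pairs over 0.1). For different numbers r ran from -0.302 to 0.384 (median -0.00031, 12 of 120 pairs over 0.1), so the numbers were not taken to pair libraries. Some libraries of different groups deviated alike, the highest r being that of control replicate 3 with TGF-β 2 h replicate 1. The cause was not tested.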
